A study of Mus musculus with 12 samples.

Results

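The hearts of C57BL/6J mice that were perfused outside the body and either deprived of flow or perfused without a break are described here across all genes. They are the 6 of the 12 libraries of the series whose titles place them in the C57-IR and C57-non-IR groups, with 3 libraries in each group. C57-IR hearts came from male mice of 3 to 5 months, and were kept on a Langendorff apparatus with 20 min of stable perfusion, 20 min of no-flow global ischemia (I) and 40 min of reperfusion (R). C57-non-IR hearts from mice of the same strain, sex and age were perfused for 80 min with no interruption, so the time on the apparatus was the same and the control also had been excised, cannulated and perfused. The other 6 libraries came from transgenic (Slit2-Tg) mice that carry human SLIT2 cDNA under a CMV promoter, a promoter active in many cell types, and were treated in the same 2 ways (Slit2-IR and Slit2-non-IR). They are used as a second set of hearts in which the same difference could be measured. Each library is described as an independent sample. The p-values rest on the spread between samples within all 4 groups together, so the Slit2-Tg libraries also enter the error of the C57BL/6J comparison.

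Ischemia stops the delivery of oxygen and substrate to the heart, and reperfusion restores them together with calcium overload and a burst of oxidants. Proteins that unfold under such stress release the heat shock factor HSF1, which drives chaperone genes. Kinase cascades and calcium switch on immediate-early genes, whose transcription needs no new protein, and NF-kB, released from its inhibitor IkB, drives cytokines, adhesion molecules and its own inhibitors. An isolated heart perfused with buffer receives no blood leukocytes, so the cells that can respond are the myocytes, endothelial cells, fibroblasts, mural cells and macrophages that live in it. Because RNA of bulk heart tissue was measured, fewer cells of a type and less RNA per cell cannot be told apart in any difference below.

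Expression was given in FPKM, a fragment number scaled to the length of the gene and to the depth of the library. The depth scaling of these values followed a joint normalization of all libraries and not the mapped fragments of each library. The libraries held between 16601154 and 20615014 reads on genes in C57-non-IR hearts and between 18771644 and 22835028 in C57-IR hearts, and mitochondrial genes took 23.9% to 25.3% and 25.4% to 26% of them. In both groups replicate 1 stood apart. Within C57-non-IR hearts the reads of replicate 1 differed from those of the other two by a chi-square of 36.2 and 40.6 per gene, against 8.71 between replicates 2 and 3, and within C57-IR hearts by 52.7 and 53.4 against 24.3. The markers of cardiomyocytes had the highest summed level of any cell type, between 15690 and 22719 FPKM, and their highest sum in each group was that of replicate 1. Endothelial markers summed to 360.3, 394 and 319 FPKM in C57-non-IR hearts and to 223, 320.1 and 362 FPKM in C57-IR hearts, fibroblast markers to 157, 236 and 237 against 163, 285 and 285 FPKM, and macrophage markers to 181, 320.1 and 278 against 142, 279.6 and 317 FPKM, so that the groups overlapped for each of the 3 cell types. Neutrophil markers stayed at or below 2.07 FPKM in sum and lymphocyte markers at or below 0.616 FPKM in each of the 6 libraries, and the neutrophil marker Ly6g was at 0 in all of them. Markers of adipocytes, which are not part of the myocardium, summed to 0.0752, 1.5 and 0.628 FPKM in C57-non-IR hearts and to 0.239, 19.6 and 21.6 FPKM in C57-IR hearts, with the high values in replicates 2 and 3. Atrial myocyte markers summed to 87, 63 and 19.9 against 98.2, 233 and 85.8 FPKM, and red blood cell markers to 8.35, 8.92 and 16.2 against 1.47, 6.79 and 6.75 FPKM. Lung epithelium markers reached 11.3 FPKM in sum in replicates 2 and 3 of either group and did not pass 0.279 FPKM in replicate 1. The part of these differences in the results below was not tested.

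**Figure D1:**
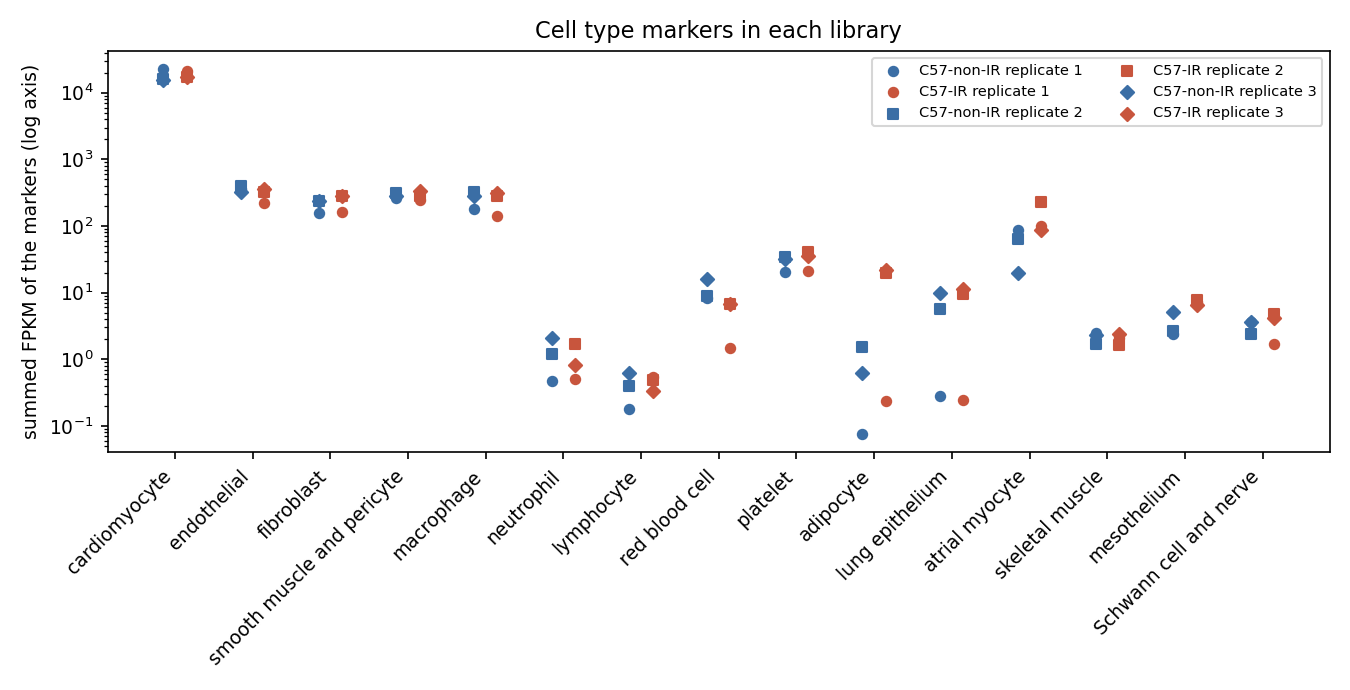
Summed FPKM of the marker genes of 15 cell types (log axis) in each C57BL/6J library, C57-non-IR in blue and C57-IR in red, with the replicate number shown by the symbol. Cardiomyocyte markers lead in every library, and adipocyte markers are near 20 FPKM in C57-IR replicates 2 and 3 and at most 1.5 FPKM in the other 4 libraries.

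After 40 min of reperfusion a small set of genes differed from the perfused controls, and most of them were higher. Of 15240 genes tested with limma on log2(FPKM + 1), 62 rose (0.407%) and 8 fell (0.0525%) at a Benjamini-Hochberg adjusted p under 0.05, and at an unadjusted p under 0.05 there were 693 genes higher (4.55%) and 673 lower (4.42%). Rescaling FPKM without the mitochondrial genes also replaced the joint normalization by the total of the remaining reads of each library. With it the adjusted counts were 35 and 5, and the unadjusted split became 485 higher and 1085 lower. Which of the 2 changes moved the counts was not tested. Below, "rose" and "fell" are kept for genes past the adjusted threshold, and for other genes the values and the unadjusted p are given. The FPKM of the 2 groups did not overlap for any of the 70 genes, and such a gap between the groups was seen with C57-IR above for 6.75% and with C57-IR below for 7.01% of all tested genes. The mean FPKM of 58 of the 62 genes that rose was at least 2 times, and of 15 at least 10 times, that of C57-non-IR hearts, whereas 7 of the 8 that fell kept between 39% and 62.7% of it. The largest fall as a ratio was that of F630028O10Rik, an antisense RNA of the X chromosome, at 0.517, 0.675 and 1.02 FPKM in C57-non-IR and 0, 0.108 and 0.0675 FPKM in C57-IR hearts (29, 48 and 58 against 0, 7 and 5 reads, adjusted p = 0.023). Of the 70 genes, 11 overlapped another tested gene, among them Adamts4, Bcl3, Stat3 and Cxcl10, and since no use of strand is stated their reads are uncertain to that extent. Protein-coding genes called in either direction were short. Their median length was 2967 bases for the 58 that rose and 3205 bases for the 7 that fell, against 4336 bases over the 13326 tested.

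**Figure D2:**
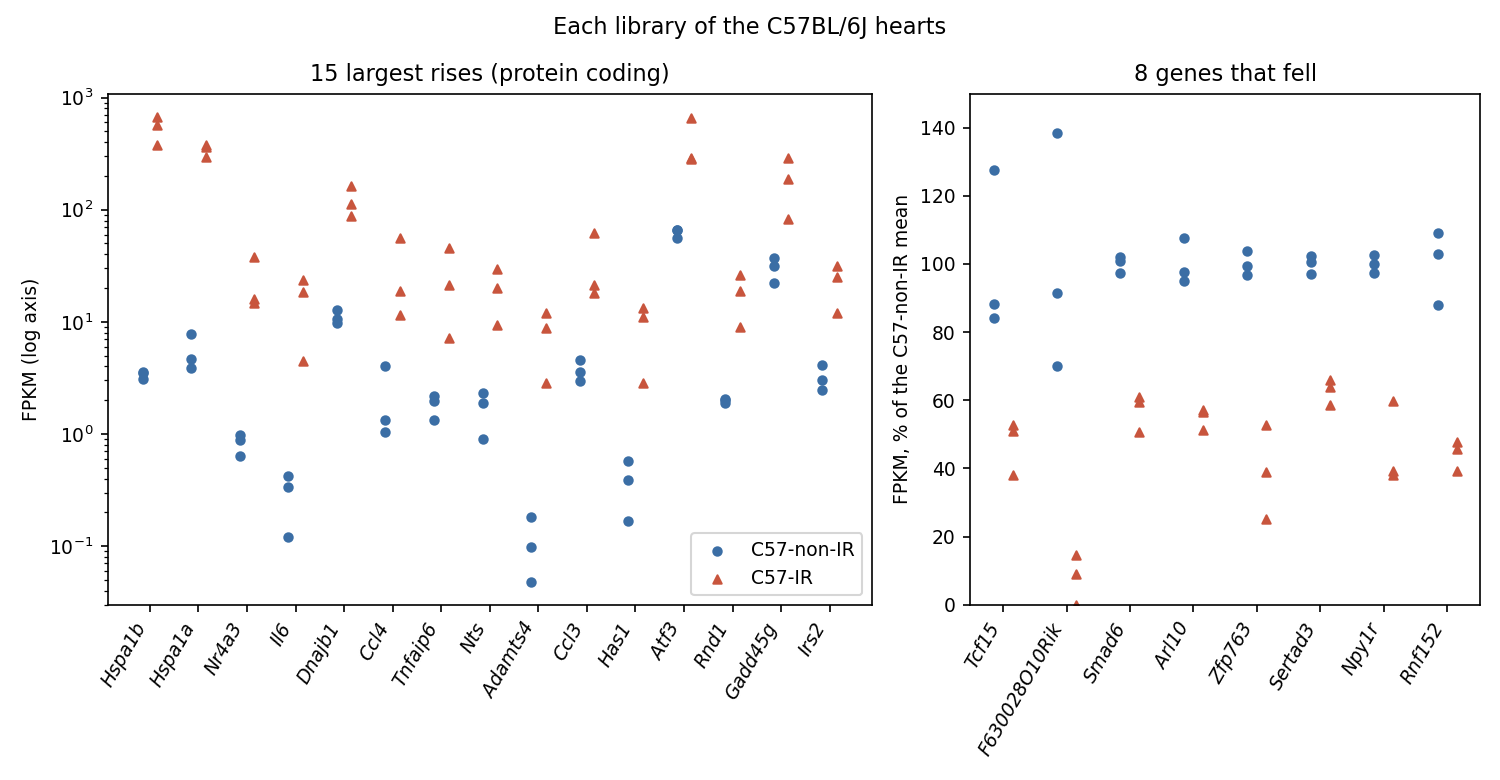
FPKM of the 15 protein-coding genes with the largest rise (left, log axis) and FPKM as a percentage of the C57-non-IR mean of the 8 genes that fell (right), with 1 point for each library of C57-non-IR (blue circles) and C57-IR hearts (red triangles). The groups do not overlap for any gene shown, and the widest gap is that of Hspa1b, at 3.12 to 3.6 FPKM against 379.9 to 674 FPKM.

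The size of the response was not even among the 3 C57-IR hearts. Replicate 2 had the highest level of the 3 for 50 of the 62 genes that rose and replicate 1 the lowest for 49 of them, and the median difference of these genes from the C57-non-IR mean was 1.23, 2.12 and 1.67 on the log2 scale in replicates 1, 2 and 3. The number of adjusted calls depended on which libraries entered the fit. Leaving out C57-IR replicate 1 gave 235 genes higher and 19 lower, whereas leaving out any one of the other 5 libraries left 3 or 4 genes higher and 0 or 1 lower, among which were Hspa1b, Hspa1a and Nr4a3 each time, and a fit of the 6 libraries alone called 9 genes higher and 0 lower. All 70 genes kept their direction in each of those fits.

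Heat shock genes showed the largest rises in the data. Hspa1b and Hspa1a encode the inducible HSP70, the chaperone that binds unfolded proteins, from 2 neighbouring copies on chromosome 17. Hspa1b was at 3.12, 3.6 and 3.5 FPKM in the C57-non-IR hearts and at 379.9, 567 and 674 FPKM in the C57-IR hearts, a mean 158 times that of the controls (log2 fold change 6.90 ± 0.38, SE, 3 hearts a group, adjusted p = 1.17e-05). Hspa1a went from 7.72, 4.7 and 3.89 to 293, 365 and 374 FPKM (63.3 times, 5.78 ± 0.32, adjusted p = 1.17e-05), and the C57-IR hearts held 15194 to 24916 reads on it where the C57-non-IR hearts held 200 to 390. The 2 genes are near-identical copies, so the split of reads between them is uncertain, while the rise holds for both.

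Their promoters show how alike the copies are. The RefSeq windows (build GRCm38.p6) from 250 bases before to 50 bases after the transcription start are printed 5′ to 3′ for both genes and for Hsph1, with capitals on the paired heat shock units GAANNTTC and TTCNNGAA and on the longer element of 3 units (GAANNTTCNNGAA or TTCNNGAANNTTC, which contains the paired unit), searched on both strands.
Hspa1b, chr17:34959189-34959488, minus strand: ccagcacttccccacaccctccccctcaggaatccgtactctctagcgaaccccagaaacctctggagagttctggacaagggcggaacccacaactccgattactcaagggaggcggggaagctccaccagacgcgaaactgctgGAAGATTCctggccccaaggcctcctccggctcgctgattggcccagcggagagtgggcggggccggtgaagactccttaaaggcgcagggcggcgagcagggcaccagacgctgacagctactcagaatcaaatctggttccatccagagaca
Hspa1a, chr17:34972107-34972406, minus strand: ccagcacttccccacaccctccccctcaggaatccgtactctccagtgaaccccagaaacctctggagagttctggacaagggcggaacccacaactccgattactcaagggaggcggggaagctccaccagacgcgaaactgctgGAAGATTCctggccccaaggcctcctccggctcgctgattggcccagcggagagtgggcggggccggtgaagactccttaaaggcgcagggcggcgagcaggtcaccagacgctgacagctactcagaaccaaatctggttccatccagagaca
Hsph1, chr5:149636287-149636586, minus strand: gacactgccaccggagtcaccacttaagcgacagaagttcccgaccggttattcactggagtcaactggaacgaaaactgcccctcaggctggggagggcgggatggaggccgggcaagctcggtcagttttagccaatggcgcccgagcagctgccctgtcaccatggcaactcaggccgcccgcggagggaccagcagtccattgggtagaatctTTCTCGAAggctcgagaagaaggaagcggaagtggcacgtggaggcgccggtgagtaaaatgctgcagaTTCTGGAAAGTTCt
The windows of Hspa1a and Hspa1b were identical at 296 of 300 bases (98.7%), and both held 1 paired unit, starting at position -104. The element of 3 units was found in Hsph1 alone among the 44 genes that rose and had a window in the table, and in 48 of the 10755 tested genes with a window (0.446%). A paired unit was found in 9 of the 44 (20.5%) and in 11.7% of the 10755. It was also found in 2 of the 7 genes that fell and had a window (28.6%, Npy1r and Zfp763). The paired unit was added to the search after the longer element had matched neither HSP70 gene.

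Beyond the HSP70 copies, 4 more of the 39 heat shock proteins and co-chaperones rose, which makes 6 of 39, and 19 of 39 were higher at an unadjusted p under 0.05 with none lower. The median log2 fold change of the list was 0.29, against 0.00 over all genes tested. Dnajb1, the HSP40 partner that loads clients onto HSP70, was at 9.82, 12.8 and 10.7 FPKM without and at 87.6, 162 and 112 FPKM with IR (3.29 ± 0.38, adjusted p = 0.00934). Hsp90aa1, the stress-induced HSP90, rose from 29.8, 29.2 and 37.5 to 98.5, 146 and 173 FPKM (2.05 ± 0.27, adjusted p = 0.0143), and C57-IR replicate 3 was highest for it as for both HSP70 genes. Hsph1 (HSP110), which exchanges the nucleotide of HSP70, reached 19.3, 24.2 and 34.7 FPKM from 6.31, 7.01 and 8.58 FPKM (adjusted p = 0.0143). Zfand2a, an arsenite- and heat-induced partner of the proteasome, had the smallest rise of the 6, at 2.2 times the C57-non-IR mean (adjusted p = 0.0493). Hspb1, the small heat shock protein HSP27, lay just outside the threshold (adjusted p = 0.0511) with 509, 249 and 319 FPKM in C57-non-IR and 835, 1287 and 1006 FPKM in C57-IR hearts, and so did Dnaja1 (adjusted p = 0.0542). Cryab, the most abundant small heat shock protein of cardiac muscle, was high in all 6 hearts and overlapped between groups, at 974, 696 and 718 and 865, 910.4 and 824 FPKM (unadjusted p = 0.327).

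Immediate-early transcription factors had the highest median of the 22 lists examined, at 1.07 on the log2 scale. Of the 35 genes, 6 rose and 26 were higher at an unadjusted p under 0.05, with none lower. Nr4a3, an orphan nuclear receptor induced by cyclic AMP and calcium, showed the steepest rise, from 0.971, 0.635 and 0.878 to 16.1, 37.7 and 14.7 FPKM (27.6 times, 3.58 ± 0.35, adjusted p = 0.00309), and its relative Nr4a2 rose from 3.38, 2.69 and 2.32 to 9.99, 20.4 and 10.4 FPKM (adjusted p = 0.039). Atf3, a stress-induced member of the ATF family, was already at 56, 66.4 and 65.2 FPKM in the perfused controls and reached 288, 656 and 284 FPKM (2.58 ± 0.37, adjusted p = 0.023). In all 3 the C57-IR replicate 2 stood well above the other two. Fosl2, an AP-1 subunit, went from 5.6, 5.74 and 4.57 to 20.7, 35.2 and 22.4 FPKM (adjusted p = 0.0143), Myc from 2.31, 2.57 and 2.49 to 10.9, 35.8 and 13.7 FPKM (adjusted p = 0.0459), and the repressor Bhlhe40 from 12.8, 13.2 and 17.3 to 30.5, 49.3 and 41.4 FPKM (adjusted p = 0.023).

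The best known members of this class did not pass the adjusted threshold, and their levels were high in both groups. Fos was at 190.1, 221 and 242 FPKM in the perfused controls and at 345, 653 and 422 FPKM after IR (unadjusted p = 0.0165), and Jun at 167, 195 and 177 and 317, 451 and 341 FPKM (unadjusted p = 0.00168). For both genes every C57-IR heart was above every C57-non-IR heart, and the means differed by 2.17 and 2.06 times. Both genes were therefore well expressed in hearts that had been perfused without ischemia.

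Inhibitors of these pathways were higher as well. Of 34 kinase phosphatases and feedback inhibitors, 3 rose, 22 were higher at an unadjusted p under 0.05 and none was lower (median log2 fold change 0.80). Tnfaip3, which encodes A20, the ubiquitin-editing inhibitor of NF-kB, rose from 0.642, 0.673 and 1.02 to 3.22, 6.99 and 5.32 FPKM (1.76 ± 0.23, adjusted p = 0.0143). The ERK phosphatases Dusp5 and Dusp4 rose to 2.99 and 2.49 times their control means (adjusted p = 0.0463 and 0.0468). Dusp1, the most abundant phosphatase of the list and itself an immediate-early gene, was at 166, 241 and 204 FPKM in C57-non-IR and 185, 247 and 207 FPKM in C57-IR hearts, which overlapped (unadjusted p = 0.754). Btg2, the other gene with the highest level in this list, was at 117, 187 and 175 and 239, 544 and 255 FPKM (unadjusted p = 0.0465).

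Cytokine genes that rose started from low levels. Of the 37 tested cytokines, chemokines and receptors (of 41 listed), 6 rose, and at an unadjusted p under 0.05 there were 23 higher and 2 lower (median log2 fold change 0.65). Il6 was at 0.121, 0.42 and 0.333 FPKM in C57-non-IR hearts and at 4.51, 23.5 and 18.5 FPKM in C57-IR hearts (53.2 times, 3.43 ± 0.43, adjusted p = 0.0143), with replicate 1 well below the other two. Lif, a cytokine of the same receptor family that signals through gp130, rose from 0.0945, 0.351 and 0.412 to 0.738, 1.53 and 1.45 FPKM (adjusted p = 0.0468), and Stat3, the transcription factor that gp130 activates, from 10.2, 12.3 and 12.3 to 17.2, 21.7 and 16.5 FPKM (adjusted p = 0.0468). Tnf, the macrophage cytokine that activates NF-kB, went from 1.07, 2.2 and 1.83 to 6.89, 27.5 and 9.37 FPKM (adjusted p = 0.0463). For Il6 and Tnf the highest C57-IR heart was replicate 2, several times above replicate 1.

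The chemokines that rose attract monocytes and T cells. Ccl3 and Ccl4, chemokines made by activated macrophages, rose from 2.99, 4.6 and 3.55 to 21.4, 62.3 and 17.9 FPKM and from 1.33, 4 and 1.05 to 11.5, 55.4 and 18.9 FPKM (adjusted p = 0.039 and 0.04997). Cxcl10, the ligand of CXCR3, rose from 0.0782, 0.123 and 0.205 to 1.35, 6.23 and 2.41 FPKM (adjusted p = 0.04997). The neutrophil attractant Cxcl2, chosen here after its values were seen, did not pass the adjusted threshold, at 0.994, 2.22 and 2.4 and 8.62, 37.1 and 13.8 FPKM (adjusted p = 0.0621). Ccl7 had the highest level among the chemokines of the list, with 8.43, 22.9 and 16.1 and 29.4, 106 and 51.6 FPKM (unadjusted p = 0.0019). The 2 genes that were lower at an unadjusted p under 0.05 were Cxcl12, the chemokine that endothelium and stroma make without stimulation, and Lifr, the receptor of LIF.

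Elements bound by AP-1 and NF-kB are common in genes of this kind, and the promoters of Il6, Tnfaip3 and Cxcl10 are printed because all 3 held both. Capitals mark AP-1 elements (TGANTCA, both strands) and kappa-B elements (the degenerate consensus, both strands) in the same RefSeq windows.
Il6, chr5:30012864-30013163, plus strand: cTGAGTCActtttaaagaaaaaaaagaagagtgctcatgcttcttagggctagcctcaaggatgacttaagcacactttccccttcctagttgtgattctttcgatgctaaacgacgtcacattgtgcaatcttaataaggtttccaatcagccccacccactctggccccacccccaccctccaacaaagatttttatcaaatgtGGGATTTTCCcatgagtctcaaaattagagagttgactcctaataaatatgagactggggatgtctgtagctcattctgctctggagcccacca
Tnfaip3, chr10:19015361-19015660, minus strand: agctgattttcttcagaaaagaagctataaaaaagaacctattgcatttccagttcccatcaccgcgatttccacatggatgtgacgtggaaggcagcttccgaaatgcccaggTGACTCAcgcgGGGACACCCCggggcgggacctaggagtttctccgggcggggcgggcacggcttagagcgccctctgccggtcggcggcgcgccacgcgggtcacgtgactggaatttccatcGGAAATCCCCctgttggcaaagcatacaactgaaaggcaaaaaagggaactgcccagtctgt
Cxcl10, chr5:92348840-92349139, minus strand: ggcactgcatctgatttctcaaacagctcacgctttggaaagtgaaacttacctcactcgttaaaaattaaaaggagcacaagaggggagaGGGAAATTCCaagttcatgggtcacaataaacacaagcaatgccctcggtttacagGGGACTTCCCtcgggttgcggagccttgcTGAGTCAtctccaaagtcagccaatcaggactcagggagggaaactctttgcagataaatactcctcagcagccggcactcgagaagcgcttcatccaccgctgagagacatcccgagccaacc
An AP-1 element was found in 8 of the 44 genes that rose and had a window (18.2%) and in 510 of 10755 tested genes (4.74%), and a kappa-B element in 6 of the 44 (13.6%) and in 5.19% of all. The cyclic AMP response element TGACGTCA was found in 2 of the 44 (4.55%) and in 3.19% of all, and the CArG box in 2 of the 44 and in 1.3%. Of the 8 genes that fell, 7 had a window, and 1 of these (Npy1r) held an AP-1 element and none a kappa-B element.

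Among the 20 NF-kB factors, innate receptors and inflammasome genes, 2 rose and 16 were higher at an unadjusted p under 0.05, with none lower (median log2 fold change 0.73). Bcl3, a nuclear IkB protein that modulates NF-kB at its targets, rose from 1.83, 1.39 and 2.08 to 4.88, 12.5 and 6.35 FPKM (adjusted p = 0.039). Tnfaip6, whose product TSG-6 binds hyaluronan, went from 1.34, 1.98 and 2.16 to 7.14, 45.3 and 21.4 FPKM (adjusted p = 0.0493). Ptx3, a soluble pattern receptor, had a higher fold of means, 34.9, but its C57-IR values of 2.37, 31.6 and 13.5 FPKM were too spread to pass (adjusted p = 0.0794). Rela, the main activating subunit, differed by 1.55 times (unadjusted p = 0.00382). The macrophage markers given above overlapped between the groups.

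The vessel wall showed 2 opposite patterns. Adhesion and coagulation genes were higher, with 3 of 18 risen and 11 higher at an unadjusted p under 0.05 (median 0.68), and no gene lower. Sele (E-selectin), which captures rolling leukocytes and is made by activated endothelium, rose from 0.383, 0.414 and 0.496 to 3.54, 12.9 and 5.87 FPKM (2.40 ± 0.40, adjusted p = 0.039). Plaur, the urokinase receptor, and Plau, urokinase itself, rose from 2, 1.27 and 1.74 to 6.37, 20.8 and 14.7 FPKM and from 3.7, 3.29 and 2.37 to 5.93, 12.5 and 12.5 FPKM (adjusted p = 0.023 and 0.0487).

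Most genes of endothelial identity had a lower mean after IR. Of 40, 1 fell, 11 were lower and none higher at an unadjusted p under 0.05, and 16 were lower in every C57-IR heart than in every C57-non-IR heart, with a median log2 fold change of -0.24. Over all tested genes, 4.42% were lower at an unadjusted p under 0.05 and 7.01% were lower without overlap. Tcf15, a transcription factor that with MEOX2 sets fatty acid transport in cardiac endothelium, fell from 117, 81 and 77.1 to 48.4, 46.8 and 35 FPKM (-1.05 ± 0.18, adjusted p = 0.039), the largest of the 8 falls on the log2 scale. Sox18, a factor of vascular differentiation, was at 43.3, 46.1 and 38.8 and 16.8, 27 and 27.3 FPKM (unadjusted p = 0.0054), and Aqp7, a glycerol channel of capillaries, at 15.3, 13.1 and 12.7 and 7.11, 10.8 and 9.52 FPKM (unadjusted p = 0.00448). Fabp4 and Cd36, the most abundant genes of the list, overlapped between groups. The summed endothelial markers overlapped too, with the lowest sum in C57-IR replicate 1. Without that library 7 genes were lower, 4 were higher and the median was -0.09, whereas it lay between -0.20 and -0.34 with any one of the other 5 left out.

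Smad6 belongs beside these genes as the inhibitory SMAD that shear stress and BMP signals induce in endothelium. It fell from 9.75, 9.86 and 9.41 to 4.9, 5.9 and 5.76 FPKM (-0.71 ± 0.13, adjusted p = 0.0487). Npy1r, a receptor of neuropeptide Y, fell from 0.765, 0.805 and 0.786 to 0.299, 0.47 and 0.309 FPKM (adjusted p = 0.0291). The remaining protein-coding genes that fell were Rnf152, a lysosomal ubiquitin ligase that restrains mTORC1 (0.442 of its control mean), the small GTPase relative Arl10 (0.55), the transcriptional regulator Sertad3 (0.627) and Zfp763 (0.39). Rnf152, Npy1r, Zfp763 and Arl10 were low in all 6 hearts, with a highest value of 3.34 FPKM for Arl10 in C57-non-IR replicate 3.

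Adamts4 and Has1, which remodel the pericellular matrix, rose from near 0. Of 43 tested matrix, protease and growth factor genes (of 44 listed), 2 rose, 15 were higher and 3 lower at an unadjusted p under 0.05 (median 0.31). Adamts4, an aggrecanase that cleaves versican, was at 0.0977, 0.0482 and 0.18 FPKM in C57-non-IR and 2.84, 12 and 8.79 FPKM in C57-IR hearts (2.83 ± 0.33, adjusted p = 0.00934), and its mean ratio of 72.3 rests on control values close to 0. Has1, a hyaluronan synthase, rose from 0.169, 0.576 and 0.387 to 2.82, 13.4 and 11.1 FPKM (adjusted p = 0.0487). Ugdh, which makes the UDP-glucuronate that hyaluronan synthases use and was named after its values were seen, rose from 1.81, 1.58 and 2.25 to 3.7, 7.58 and 5.23 FPKM (adjusted p = 0.039). Adamts1, the related protease with a higher level, was at 19.4, 32.7 and 25.2 and 61.5, 138 and 75.2 FPKM (adjusted p = 0.0785), and Cyr61, a matrix protein and YAP target, at 189, 179 and 188 and 319.7, 599 and 378 FPKM (unadjusted p = 0.00147). The count of 15 was 9 without C57-IR replicate 2 and 24 without replicate 1, where the median was 0.56. It was 10 without C57-IR replicate 3 or C57-non-IR replicate 1.

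Krt8 and Krt18, the keratin pair of simple epithelia that is also made by the mesothelium of the epicardium, rose from below 0.4 FPKM. Krt8 was at 0.0325, 0.0257 and 0.224 FPKM in C57-non-IR hearts and at 1.27, 1.32 and 1.23 FPKM in C57-IR hearts (adjusted p = 0.0173), and Krt18 at 0.336, 0.199 and 0.165 and 1.8, 1.23 and 1.08 FPKM (adjusted p = 0.039). The 3 C57-IR hearts were nearly level for Krt8, and replicate 1 was highest for Krt18. The mesothelial marker list, to which both belong, summed to 2.37, 2.61 and 5.16 against 7.26, 7.7 and 6.59 FPKM. Of its 6 other members Wt1 was higher at an unadjusted p under 0.05 (1.03, 0.912 and 0.578 and 0.999, 1.42 and 1.67 FPKM). The groups overlapped for Wt1, Msln and Upk3b.

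Several genes with no place in a list were among the 15 largest rises. Nts, the precursor of neurotensin, rose from 0.894, 1.89 and 2.31 to 9.41, 29.6 and 20.2 FPKM (2.85 ± 0.40, adjusted p = 0.0191). Rnd1, a small GTPase that loosens actin stress fibres, rose from 2.02, 1.87 and 2.03 to 8.92, 26.2 and 18.8 FPKM (adjusted p = 0.0143). Irs2, the insulin receptor substrate that is induced by cyclic AMP, rose from 4.09, 3.03 and 2.48 to 25.3, 31.7 and 11.9 FPKM (adjusted p = 0.0424). The C57-IR hearts spread more widely than the controls for all 3. Genes named after their values were seen include Arid5a, which stabilises Il6 mRNA and rose to 6.8 times its control mean, Pim1, a kinase induced by STAT3 (4.14 times), Sphk1, which makes sphingosine-1-phosphate (4.54 times), and Phlda1 (3.2 times), each with a log2 fold change past the adjusted threshold (0.0404, 0.0487, 0.0448 and 0.0302 for the adjusted p).

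One microRNA locus was among the calls. Mir212 and its neighbour Mir132 lie within the transcript 1700016P03Rik on chromosome 11, and CREB drives their common transcript. The hairpin of Mir212 held 3, 0 and 0 reads in C57-non-IR hearts and 7, 16 and 13 in C57-IR hearts, at 1.94, 0 and 0 and 4.41, 8.91 and 6.36 FPKM (2.36 ± 0.41, adjusted p = 0.0454). The host 1700016P03Rik held 8, 5 and 9 against 25, 66 and 68 reads (unadjusted p = 0.000251, adjusted p = 0.0516), and Mir132, too low to be tested, held 0, 2 and 1 against 1, 7 and 7. These are reads of the hairpin loci and not of mature microRNAs, and the locus and its host share them. The mature sequences (RefSeq, GRCm38.p6) are printed with bases 2 to 8, the seed, in capitals, because the 3p arms of the pair have the same seed.
miR-212-3p, chr11:75173443-75173464: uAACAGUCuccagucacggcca
miR-132-3p, chr11:75173723-75173744: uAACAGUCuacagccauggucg

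Stress pathways other than heat shock gave fewer calls. Of 26 genes of the unfolded protein and integrated stress responses, 0 passed the adjusted threshold and 8 were higher at an unadjusted p under 0.05 (median 0.34), a count that was 2 without C57-IR replicate 2, 4 without C57-IR replicate 3 or C57-non-IR replicate 2, 5 without C57-non-IR replicate 1 and 18 without C57-IR replicate 1. The median was 0.19 without C57-IR replicate 2 and 0.56 without C57-IR replicate 1. Hspa5, the chaperone BiP of the endoplasmic reticulum, was at 87.7, 94.5 and 111 and 121, 169.9 and 169 FPKM (unadjusted p = 0.000703), and Ppp1r15a (GADD34), which reverses the translational block, at 22.8, 32.8 and 25.8 and 52.4, 153 and 104 FPKM (unadjusted p = 0.00195). Both kept the groups apart. Of 16 p53 and growth arrest genes 2 rose and 7 were higher (median 0.49). Gadd45g, a growth arrest gene, rose from 22.3, 31.2 and 36.9 to 83.3, 286 and 188 FPKM (adjusted p = 0.039), and Pmaip1 (NOXA), a BH3-only activator of apoptosis, from 0.244, 0.298 and 0.262 to 0.909, 2.18 and 1.5 FPKM (adjusted p = 0.039). Pmaip1 was the 1 gene of 18 tested in the BCL2 family that rose, while the anti-apoptotic Bcl2l1 was lower at 14.4, 20.8 and 14.3 against 5.91, 11.8 and 9.63 FPKM (unadjusted p = 0.0151) and Mcl1 higher at 90, 81.6 and 70.1 against 111, 158 and 94.7 FPKM (unadjusted p = 0.0173).

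Antioxidant genes (24 tested, 4 higher, median 0.05) and hypoxia and glycolysis genes (34 tested, 5 higher and 1 lower, median 0.04) had no call at the adjusted threshold. The count of 4 was 2 without C57-non-IR replicate 1 or 2, 1 without C57-IR replicate 2 and 6 without C57-IR replicate 1. Hmox1, heme oxygenase 1, stood out with 4.46, 7.01 and 5.58 and 16.4, 48.6 and 27 FPKM (unadjusted p = 0.0068). Slc16a3, the lactate exporter MCT4, lay just outside the threshold, at 0.751, 0.627 and 0.728 and 1.45, 3.58 and 2.75 FPKM (adjusted p = 0.0511), and Slc2a1, the glucose transporter GLUT1, was at 4.57, 5.26 and 5.24 and 6.44, 10.5 and 9.4 FPKM (unadjusted p = 0.00318). The abundant glycolytic genes Eno3 and Ldhb had means of 0.972 and 1 times their controls. Sod1 and Gpx4, the most abundant antioxidant genes, had means of 1.01 and 0.909 times.

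Genes that carry out contraction and energy supply gave no call. None of 22 ventricular sarcomere genes had an unadjusted p under 0.05 in either direction (median 0.04), and Actc1, cardiac actin, was at 6687, 5174 and 4697 FPKM in C57-non-IR and 7429, 4638 and 5538 FPKM in C57-IR hearts. Calcium handling and channel genes (32 tested, 2 higher, median 0.08) and fatty acid oxidation genes (28 tested, 1 lower, median 0.10, and 0.03 to 0.18 with 1 library left out) had no call. Gja1 (connexin 43), which couples myocytes electrically, was higher at 19.9, 19 and 23.6 against 51.2, 41.7 and 27.3 FPKM (unadjusted p = 0.00137), and Acot11, an acyl-CoA thioesterase, lower at 4.06, 6.02 and 4.88 against 2.69, 2.11 and 2.95 FPKM (unadjusted p = 0.00123). Of 13 mRNAs of the mitochondrial genome mt-Nd3 was lower (unadjusted p = 0.0133), and mt-Co1, the most abundant, had a mean 1.2 times its control. Clock genes (16 tested) gave 0 calls, and 0 at an unadjusted p under 0.05.

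Stretch-responsive and fetal cardiac genes had the highest median of the myocyte lists, with 12 of 22 higher at an unadjusted p under 0.05, none lower and a median of 0.69, although none passed the adjusted threshold. Actg1, cytoplasmic actin, was at 96.8, 84.6 and 89.3 and 128, 249 and 226 FPKM (adjusted p = 0.0794), and Rcan1, a calcineurin target, at 20.7, 22.7 and 26.4 and 32.9, 82.5 and 51.8 FPKM (adjusted p = 0.103). Ankrd1, the stretch sensor with one of the highest levels of the list, was at 297, 345 and 301 and 487, 460.3 and 424 FPKM. Every C57-IR heart was above every C57-non-IR heart. Its unadjusted limma p was 0.213 (log2 fold change 0.54 ± 0.41, SE), with an error estimated from the Slit2-Tg hearts as well. The atrial markers, which share Nppa with this theme, had a higher sum in C57-IR replicate 2 than in the other 5 libraries. The ubiquitin list had 3 of 14 higher and 1 lower (median 0.13), led by the ligase Rnf122 (adjusted p = 0.0785).

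**Figure D3:**
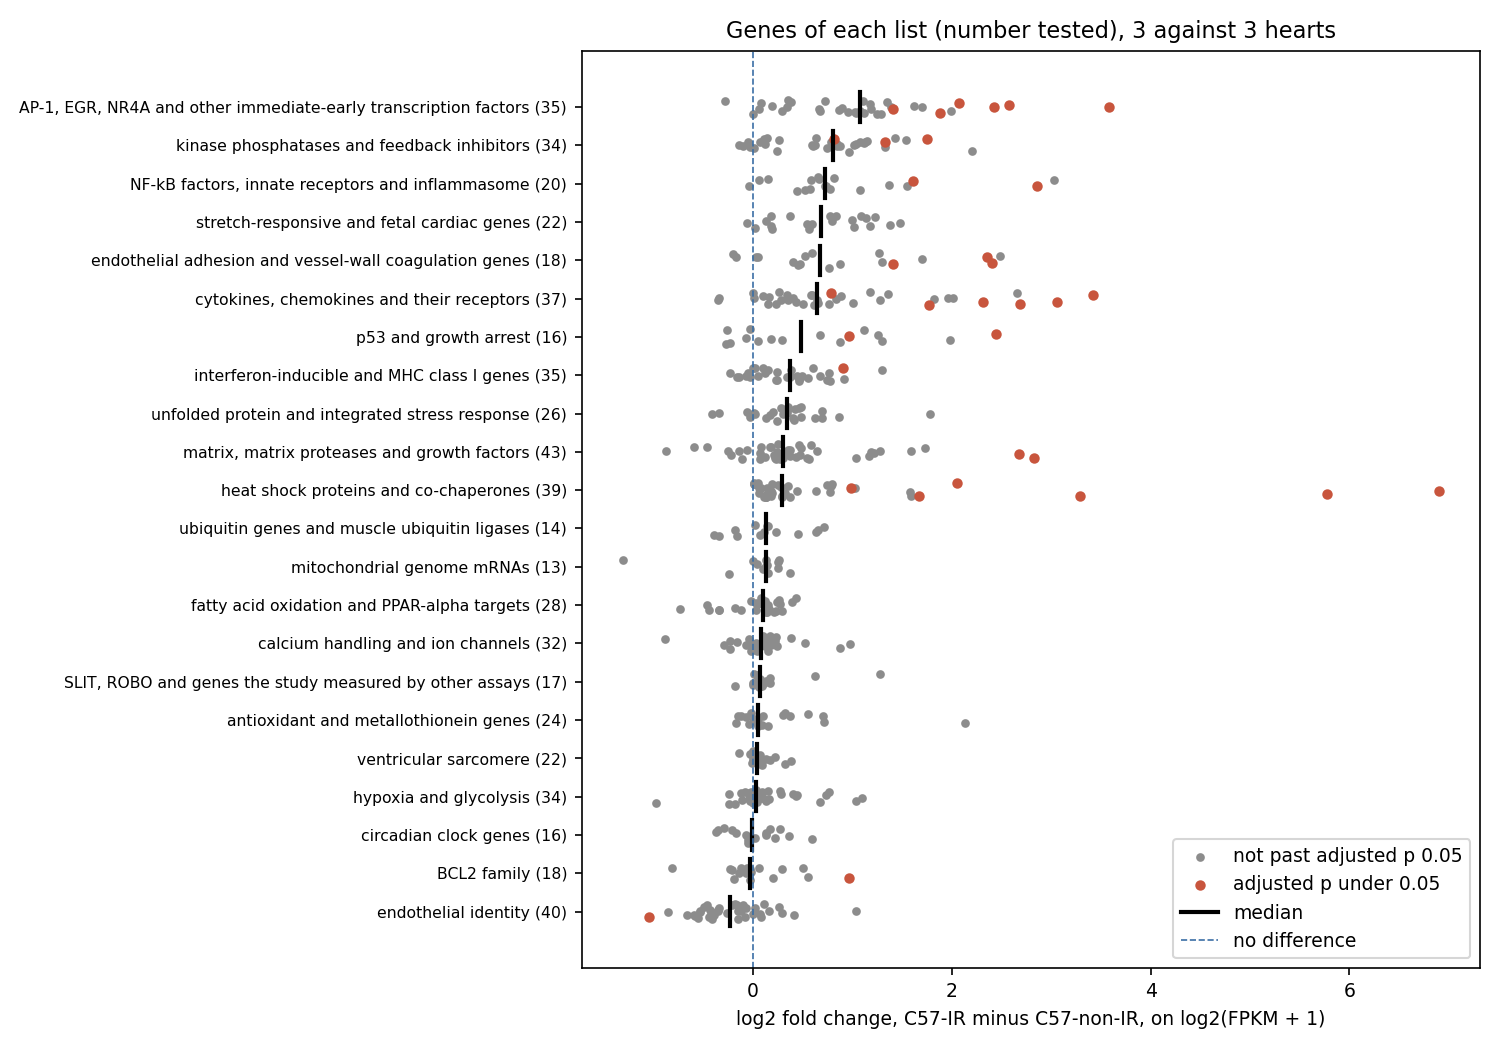
Log2 fold change of every tested gene in 22 lists, C57-IR minus C57-non-IR on log2(FPKM + 1), with red points for an adjusted p under 0.05, grey points for other genes and a black bar at the median of each list. Immediate-early factors lie farthest to the right with a median of 1.07, endothelial identity genes farthest to the left with -0.24, and the sarcomere list is centred at 0.04.

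Interferon-inducible and MHC class I genes gave 1 rise in 35 and 9 higher at an unadjusted p under 0.05 (median 0.37). That median was 0.04 without C57-IR replicate 2, and the count of 9 became 3 without it, 4, 5 and 6 without C57-non-IR replicates 3, 2 and 1, and 17 without C57-IR replicate 1. Irf8, a factor of macrophage and dendritic cells, rose from 1.11, 1.4 and 1.24 to 2.44, 4.15 and 3.17 FPKM (adjusted p = 0.0487), and Irf1, which drives early interferon-type genes, was at 7.24, 6.53 and 6.13 and 12.8, 29.1 and 14.7 FPKM (adjusted p = 0.0785). In the list of SLIT, ROBO and related genes (17 of 18 tested, 3 higher, median 0.07), Il1b was at 0.77, 1.8 and 2.61 and 3.06, 9.91 and 4.69 FPKM (unadjusted p = 0.0107) and Slamf7, a receptor of macrophages and lymphocytes, at 0.0513, 0.172 and 0.215 and 0.413, 1.52 and 0.525 FPKM (unadjusted p = 0.00675). Mouse Slit2 itself was low, at 0.18, 0.222 and 0.184 and 0.282, 0.235 and 0.213 FPKM, and the receptors Robo1 and Robo4 overlapped between groups as well, with Robo4 at 16.2, 10.9 and 9.31 and 7.2, 12.3 and 12.1 FPKM. The troponin genes Tnnt2 and Tnni3 had means of 1.05 and 1.01 times their controls.

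Zinc finger genes were lower as a group by a small amount. Of 320 tested genes named Zfp and a number, most of which encode C2H2 zinc finger proteins, 76 were lower and 4 higher at an unadjusted p under 0.05, and their median log2 fold change was -0.09 against 0.00 over all genes tested. Zfp763 was the 1 that fell, from 1.09, 1.17 and 1.12 to 0.596, 0.285 and 0.438 FPKM (adjusted p = 0.039). Zfp60 was at 0.966, 0.779 and 0.957 and 0.526, 0.459 and 0.567 FPKM and Zfp87 at 0.861, 0.938 and 1.15 and 0.44, 0.301 and 0.59 FPKM (adjusted p = 0.0625 and 0.0732). Without C57-IR replicate 2 the count of 76 was 44, and the median kept its sign with each library left out, between -0.07 and -0.12. Such genes are mostly expressed at low levels, where log2(FPKM + 1) understates a change.

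**Figure D4:**
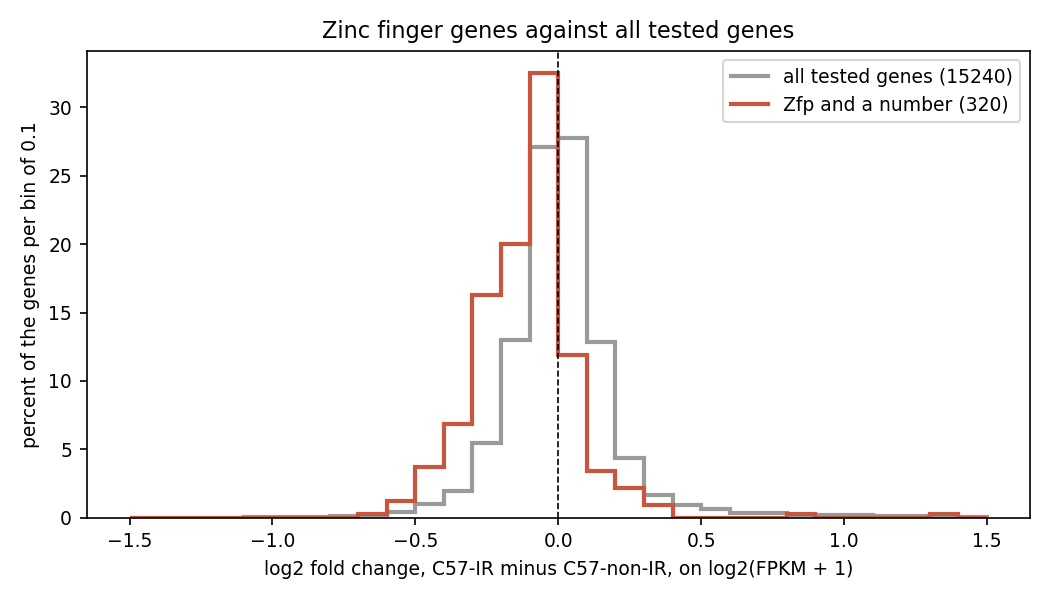
Share of genes in bins of 0.1 of the log2 fold change (C57-IR minus C57-non-IR on log2(FPKM + 1)), for the 320 genes named Zfp and a number in red and all 15240 tested genes in grey. The red outline is shifted to the left of the grey one, with medians of -0.09 and 0.00.

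Slit2-Tg hearts, which enter the error of the comparison above but not its group means, gave a similar picture for the same genes. Slit2-IR against Slit2-non-IR hearts had 68 genes higher (0.446%) and 12 lower (0.0787%) at an adjusted p under 0.05, and 937 higher (6.15%) and 772 lower (5.07%) at an unadjusted p under 0.05. Of the 70 genes called in C57BL/6J hearts, 69 had the same direction, 68 also an unadjusted p under 0.05 and 42 an adjusted p under 0.05, which is 60% of the 70 calls and 52.5% of the 80 calls of Slit2-Tg hearts. Both comparisons use 1 estimate of the error from all 12 libraries, so the counts of 68 and 42 are not independent of the calls. Hspa1b differed by 6.90 in C57BL/6J and 6.91 in Slit2-Tg hearts on the log2 scale, Nr4a3 by 3.58 and 3.87, and Il6 by 3.43 and 3.15. The median over the 62 genes that rose was 1.66 in C57BL/6J and 1.57 in Slit2-Tg hearts, and over the 8 that fell -0.58 and -0.29. These medians are not a like comparison, since the genes were chosen for a large difference in C57BL/6J hearts. The Slit2-Tg controls also lay lower for the 8 that fell. Their median difference from the C57-non-IR mean was -0.21, -0.08 and -0.17 in the Slit2-non-IR hearts. It was -0.56, -0.53 and -0.44 in Slit2-IR and -0.64, -0.60 and -0.56 in C57-IR hearts. Across the 15240 tested genes the 2 sets of differences had a Pearson correlation of 0.74, given as a description, since genes are not independent and all 12 libraries were normalized together.

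**Figure D5:**
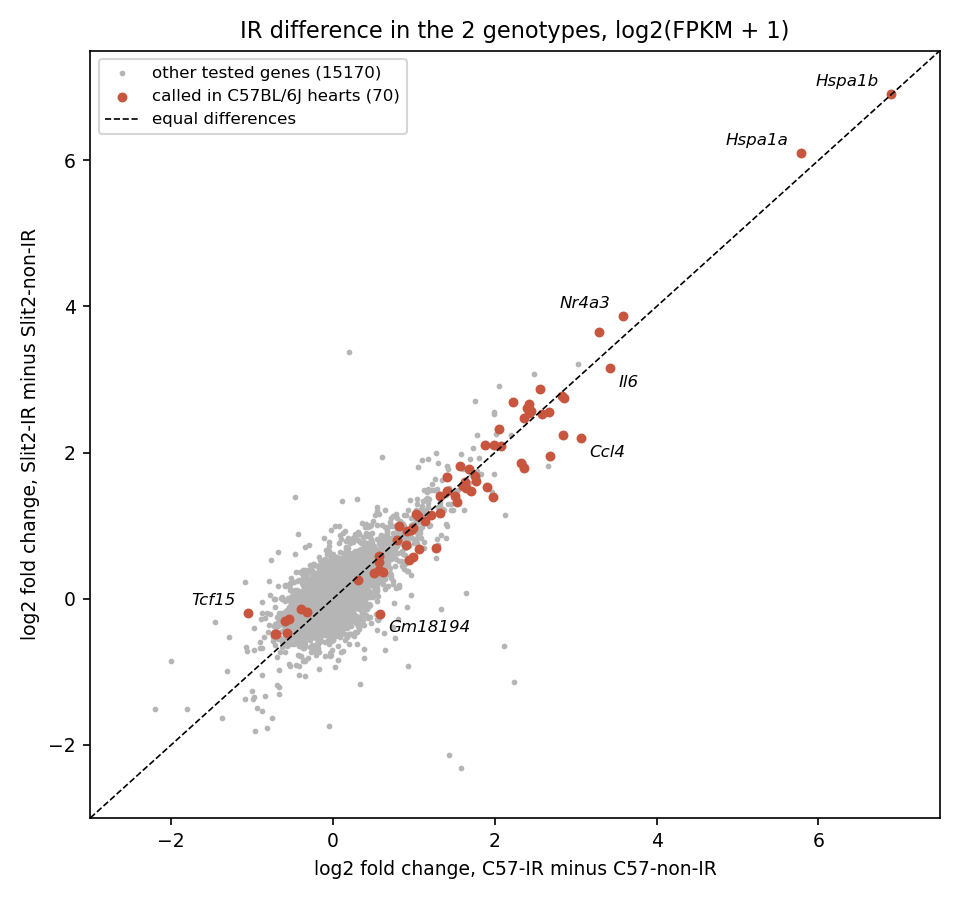
Log2 fold change of each tested gene after IR on log2(FPKM + 1), in C57BL/6J hearts (horizontal axis) and in Slit2-Tg hearts (vertical axis), with the 70 genes called in C57BL/6J hearts in red and the dashed line at equal differences. The genes that rose lie along the line up to Hspa1b at 6.90 and 6.91, while Tcf15 and Gm18194 lie off it.

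The test of the difference between the 2 genotypes called 0 of 15240 genes (0%) with limma at an adjusted p under 0.05 and 284 (1.86%) at an unadjusted p under 0.05. Among the 70 called genes the interaction was past an unadjusted 0.05 for Tcf15 (-1.05 against -0.20, unadjusted p = 0.00605), Npy1r (-0.40 against -0.14, unadjusted p = 0.0132) and the pseudogene Gm18194 (0.58 against -0.20, unadjusted p = 0.000164), which was the 1 gene with the opposite sign, and which overlaps Zscan18. None of the 3 passed the adjustment. Gm18194 held 17, 8 and 25 reads in C57-non-IR and 71, 76 and 73 reads in Slit2-non-IR hearts, so its control level differed between the genotypes. After IR it held 51, 51 and 84 reads in C57-IR and 57, 51 and 46 reads in Slit2-IR hearts. The endothelial identity list had a median of 0.00 in Slit2-Tg hearts, where 5 genes were higher and none lower at an unadjusted p under 0.05, and the interaction had an unadjusted p under 0.05 for 4 of its 40 genes. Summed endothelial markers were 229, 290.4 and 342 FPKM in Slit2-non-IR and 360.3, 394 and 319 FPKM in C57-non-IR hearts. They were 231, 344 and 346 FPKM in Slit2-IR and 223, 320.1 and 362 FPKM in C57-IR hearts. The study also listed Tcf15, Sox18 and Aqp7 among the genes that differed between the 2 non-IR groups. The part of these control levels in the differences between genotypes was not tested. The zinc finger list was lower in both, with 98 of 320 lower at an unadjusted p under 0.05 and a median of -0.14 in Slit2-Tg hearts. Ccl3, Ccl4 and Tnf differed by 2.68, 3.06 and 2.32 in C57BL/6J and by 1.95, 2.20 and 1.86 in Slit2-Tg hearts, with unadjusted interaction p of 0.272, 0.307 and 0.454.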

How the data were processed

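Hearts were perfused and RNA was sequenced as described above, and 6 of 12 libraries, grouped by the letters of their titles against the groups in the methods, entered the main comparison. For every gene of every library the authors deposited an FPKM value, derived from paired-end reads, with HISAT2 and mm10 named in the submitters' processing notes. The counting tool, annotation release and use of strand are not given in the sources used here. Multiplied by gene length, 100% of the FPKM values came out as whole numbers of one library-specific step (tolerance 0.02), which gave the reads behind each value, and the steps followed 1 joint normalization of all libraries. Of 52858 genes, 15240 were tested, those that reached 10 reads, at the median depth, in 3 or more libraries and 15 reads over all. Differences were tested with limma (version 3.58.1, R 4.3.3, moderated test, variance trend) of log2(FPKM + 1), fitting the 4 groups jointly without covariates, and adjusted by Benjamini-Hochberg over the tested genes. On this scale the change of low genes is understated. The fit was tested on simulated data for this comparison, in which it recovered 184 of 200 changed genes among 15240 at a 4-fold change, with 8 false calls. The simulated hearts shared 1 dispersion for all genes and responded evenly. The real C57-IR hearts did not respond evenly, so this recovery does not give the power of the real comparison. Genes were named by a rule: the largest changes past the threshold, and in each list every gene past it, the 3 smallest p-values and the 2 highest levels, to which 14 genes were added after their values were seen. The members and lists were chosen with earlier results of these data known. Alternatives were another pseudocount, other filters, the 6 libraries alone, replicate blocks, TMM scaling (written in R after the published definition), limma-voom on the recovered reads, a robust prior, rescaling without mitochondrial genes, and leaving out each library. The rescaling without mitochondrial genes used library totals in place of the joint normalization. The number of per-library columns left out was 0. A 3 against 3 exact permutation test cannot go below p = 0.1 and was not used. Promoter windows and microRNA sequences were taken from RefSeq (GRCm38.p6), the window nearest the gene's 5′ end where there were several. A few items are not reported here.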

Additional observations from a re-analysis of the deposited data

How the results depend on the processing

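The number of genes past the adjusted threshold depended on the processing, while the direction of all 70 called genes was the same in each of the 16 alternatives in which they were tested. Against 62 genes higher and 8 lower, the counts were 6 and 1 with every gene of at least 1 read tested, 9 and 0 with the 6 C57BL/6J libraries alone (0 lower in that limma fit, against 598 at an unadjusted p under 0.05), 28 and 1 with limma-voom on recovered reads, 35 and 5 with FPKM rescaled without mitochondrial genes, and 49 and 5 with TMM scaling. Same-numbered replicates of the 2 groups deviated together with correlations of 0.295, 0.126 and 0.0833, and replicate 1 stood apart in both groups. The correlations of unlike-numbered replicates were not computed, so these values cannot show whether the numbers mark hearts handled together. The main fit did not use the numbers. With a replicate block the counts were 143 and 31, and with the replicate block and the 6 libraries alone 27 and 3. Leaving out 1 library at a time gave 3 to 235 genes higher and 0 to 19 lower at the adjusted threshold, and 473 to 1036 higher and 452 to 681 lower at the unadjusted one. The unadjusted counts of 693 and 673 became 1040 higher with every gene of at least 1 read, and 1085 lower with the rescaling. The cause of these shifts was not tested. The setting with every gene of at least 1 read tested more genes. The fits of the 6 libraries alone and those with 1 library left out used fewer samples. The rescaling kept all 12 libraries and the same 15240 genes.

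Among the 101 genes whose values are given, changes of sign occurred only for genes far from the threshold. Rescaling without mitochondrial genes gave log2 fold changes of -0.01 for Actc1, -0.01 for Dusp1, -0.07 for Ldhb, -0.07 for Sod1 and -0.04 for Tnni3. Leaving out 1 library at a time gave -0.11 to 0.23 for Actc1, -0.07 to 0.20 for Dusp1, -0.08 to 0.05 for Eno3, -0.09 to 0.19 for Ldhb, -0.34 to 0.05 for Robo4, -0.04 to 0.11 for Sod1, -0.07 to 0.22 for Tnni3 and -0.04 to 0.26 for Tnnt2. The other 93 of these genes kept their sign throughout. Depth, at 16601154 to 22835028 reads per library, limits the genes with few reads most. In alternatives chosen after seeing the data, the 68 genes higher and 12 lower in Slit2-Tg hearts became 13 and 6 with every gene of at least 1 read, 85 and 23 with 10 reads in every library, 94 and 21 with limma-voom, 37 and 13 with the rescaling, 163 and 39 with the replicate block, and 21 to 150 and 1 to 30 with 1 C57BL/6J library left out. The interaction, with 0 adjusted and 284 unadjusted calls in limma's fit, gave 4 and 674 with every gene of at least 1 read, and 0 adjusted calls in the other 13 alternatives that held both genotypes.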

Other observations

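Another microRNA locus, chosen after its values were seen, had lower values after IR without passing the adjusted threshold. The hairpin locus Mir133a-2, which encodes one of the copies of the muscle microRNA miR-133a, was at 64.4, 19.6 and 24.4 FPKM in C57-non-IR hearts and at 6.61, 3.9 and 8.56 FPKM in C57-IR hearts (log2 fold change -2.20 ± 0.51, SE, unadjusted p = 0.00121, limma adjusted p = 0.106), and the other copy, Mir133a-1, at 30.2, 4.77 and 27.2 and 5.06, 2.98 and 3.93 FPKM (unadjusted p = 0.0113). For Mir133a-2 every C57-IR heart was below every C57-non-IR heart, the groups overlapped for Mir133a-1, and these reads are of the hairpin loci, not of the mature microRNA. Ch25h, which makes 25-hydroxycholesterol and is induced in activated macrophages, lay just outside the threshold at 0.783, 1.24 and 0.984 and 3.44, 15.6 and 13.6 FPKM (adjusted p = 0.0511), with replicate 1 lowest among the C57-IR hearts.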
